A study of Rattus norvegicus with 2 samples.

Results

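The genes described here make, sense, take in, move and export cholesterol. They are the 32 rows of the deposited rat gene table, out of 17202, whose symbol equals a name on a list of sterol genes: 18 encode enzymes of cholesterol synthesis, 5 regulate the pathway, 7 act in uptake and trafficking and 2 in export. All 32 were found, with 1 row each, and all were measured, meaning a level of 1 CPM (counts scaled to library size) or more in either library. The list holds the genes by name and not by any measured value.

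The cells were primary oligodendrocyte precursor cells (OPCs) of wild-type rats, the dividing glia that later form myelin, grown in a medium labelled OGM. The culture of the first group received Aβ, the amyloid-beta peptide of Alzheimer plaques, at 1 µM for 2 days. The other group received DMSO, the solvent, and its time rests on a protocol text that is the same for both samples and speaks of Aβ only. The labels call the cells adult in the extraction text and developing in the design, and both titles carry an unexplained P1, so the age is not settled. Each group gave 1 library, with a total of 15117102 estimated counts in Aβ and of 15019416 in DMSO. Without replicates no test could be run and differences have no replicate check. Whether animals or cultures were pooled is not stated by the labels. Ratios below are Aβ over DMSO in CPM, with exact 95% Clopper-Pearson intervals that cover counting error only. They say nothing of how far a pair of untreated cultures would differ. Fewer cells of a type and less RNA per cell cannot be told apart in bulk RNA.

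The labelled cell type was checked against its markers. Of 10 OPC markers, 9 were listed and all of these were measured, with a summed level of 2227 TPM (a level per transcript length, with equal totals in both libraries) with Aβ and 2145 TPM with DMSO. Among them Pdgfra stood at 228 TPM and 206 TPM, Cspg4 at 14.4 TPM and 13.2 TPM, Olig2 at 216 TPM and 209 TPM and Sox10 at 117 TPM and 115 TPM. The myelin genes Mbp and Mog, which mark mature oligodendrocytes, stood at 20.9 TPM and 23.6 TPM and at 18.3 TPM and 15.6 TPM. The 8 astrocyte markers summed to 2231 TPM and 2118 TPM, with Gfap, the astrocyte filament, at 839 TPM and 793 TPM. The 8 oligodendrocyte markers summed to 598 TPM and 559 TPM, most of it Cnp, at 524 TPM with Aβ. The 8 neuron markers were all measured and summed to 613 TPM and 585 TPM, with Tubb3 at 372 TPM and 353 TPM and Map2 at 151 TPM and 142 TPM, both cytoskeletal genes, while Rbfox3, the neuronal nuclear marker, stood at 6.39 TPM with Aβ. Microglia markers summed to 11.2 TPM and 12.7 TPM. The part of these other markers in the sterol gene values was not tested.

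Cholesterol is the main sterol of myelin, and in the brain it is made locally because lipoproteins do not cross the blood-brain barrier. Synthesis starts from acetyl-CoA, passes through mevalonate and isoprenoids to squalene, closes the rings to lanosterol and then trims lanosterol to cholesterol. When sterol in the endoplasmic reticulum is low, the escort protein Scap carries the SREBP transcription factors to the Golgi, where they are cut and released to switch on the synthesis genes, while Insig proteins hold Scap back when sterol is high. When sterol is in excess, the LXR nuclear receptors switch on exporters such as Abca1 and Abcg1 and the ligase Mylip, which marks lipoprotein receptors for degradation.

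The sterol genes were abundant in both libraries and nearly equal between them. Together they held 0.263% of all TPM with Aβ and 0.261% with DMSO, and 0.420% and 0.425% of all counts. Their summed counts had a ratio of 0.985 (0.974 to 0.996). Of the 32 genes, 27 lay at or above the middle of all measured genes in TPM, and 6 were among the top 10%, namely Hmgcs1, Fdps, Msmo1, Cyp51, Npc2 and Sqle. The order of levels was steep, from 384.5 TPM for Hmgcs1 to 1.08 TPM for Mylip with DMSO, and from 389 TPM to 1.17 TPM for the same genes with Aβ.

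**Figure D1:**
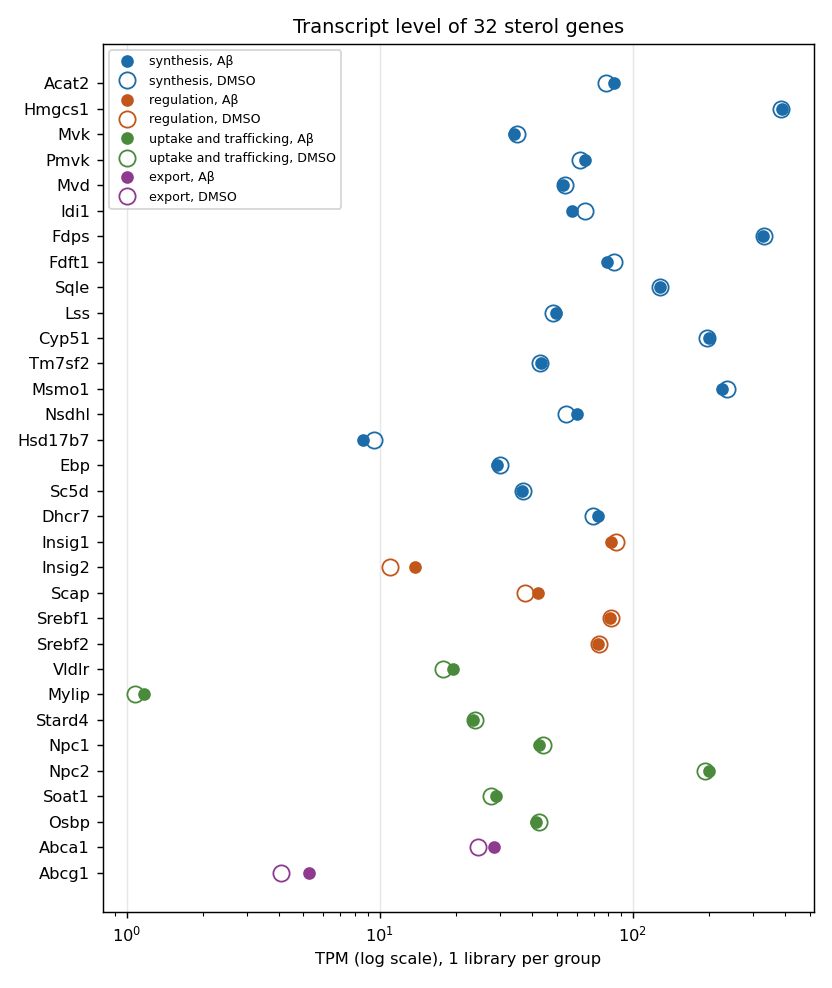
Deposited TPM (log axis) of each of the 32 sterol genes with Aβ (filled) and DMSO (open), in pathway order and coloured by role, 1 library per group. Filled and open points nearly coincide for most genes. The widest gaps are at Abcg1, with 5.26 TPM against 4.08 TPM, and Insig2, with 13.8 TPM against 11.0 TPM.

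No sterol gene was called by the rule of size, which asks for a log2 ratio of at least 1 in size and a counting interval that leaves out 1, beside 0.674% of the 13505 measured genes. The log2 ratio adds 0.5 CPM to each value, which understates differences of low genes. Ratios ran from 0.865 for Idi1 to 1.23 for Abcg1, and 30 of the 32 counting intervals lay wholly within 1.5-fold, beside 80.1% of measured genes. Estimated counts were fractional for 2 of the 32, Acat2 and Srebf1, beside 13.2% of measured genes. The median log2 ratio was -0.027, beside -0.00078 for all measured genes. A ratio below 1 was found for 19 of the 32, or 59.4%, beside 50.3% of all measured genes.

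Counting intervals lay wholly above 1 for 4 genes, beside 6.49% of measured genes, and wholly below 1 for 5 genes, beside 6.88%. Sterol genes have more counts than most, with a median of 1533 against 484 for all measured genes, and deep genes have narrow intervals. Among the 23 sterol genes at 50 CPM or more, intervals lay above 1 for 3 (13.0%), beside 9.33% of all genes at that level, and below 1 for 5 (21.7%), beside 9.68%. The ratio itself lay below 1 for 15 of these 23 (65.2%), beside 49.7%. The comparison at 50 CPM was added after the data were seen. The 4 above were Abcg1, Abca1, Scap and Nsdhl, and the 5 below were Idi1, Fdft1, Msmo1, Npc1 and Insig1. The intervals of Insig1, Abcg1 and Nsdhl ended next to 1. Those of Insig1 and Abcg1 held 1 with length adjusted, and that of Insig1 also did with the other scalings tried. Beyond 1.2-fold lay 1 gene, Abcg1, beside 13.1% of measured genes.

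**Figure D2:**
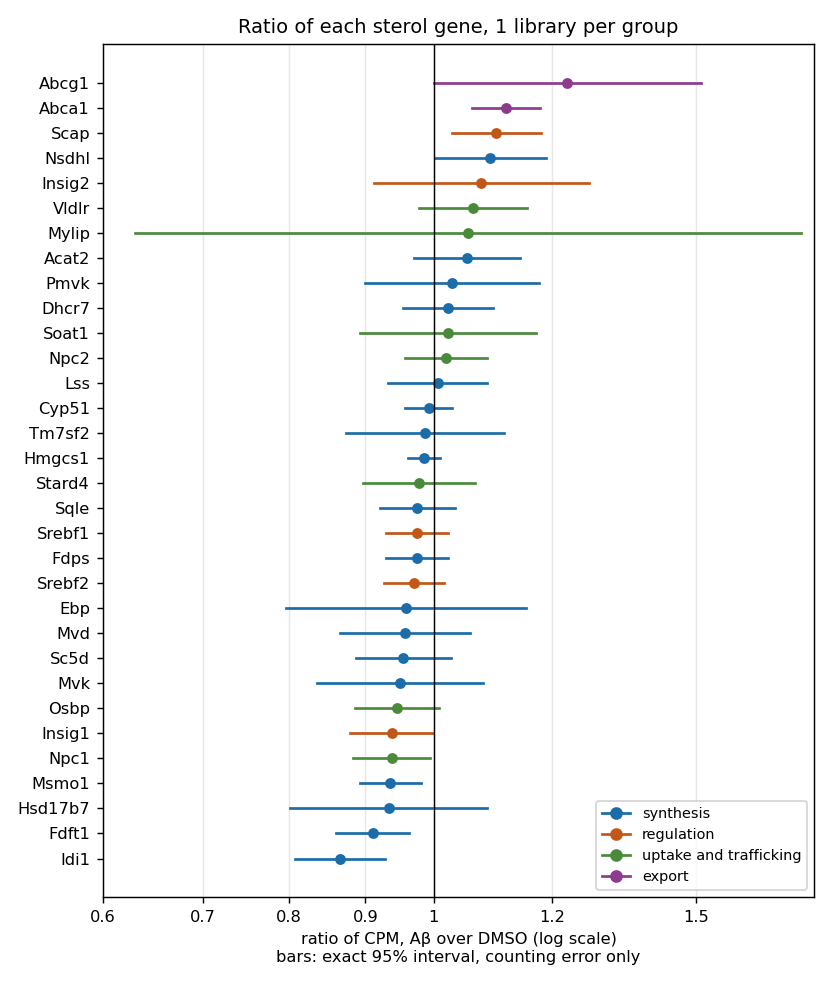
Ratio of CPM, Aβ over DMSO (log axis), of each sterol gene, sorted and coloured by role, with exact 95% counting intervals as bars. Both exporters head the order at 1.23 and 1.12, and the isoprenoid enzymes Idi1 at 0.865 and Fdft1 at 0.910 end it. Mylip, with 34 and 32 counts, has the widest bar.

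The 18 synthesis enzymes had slightly lower counts with Aβ as a group. A ratio below 1 was found for 13 (72.2%), beside 50.3% of all measured genes, and above 1 for 5, and the median log2 ratio was -0.036. Their counts summed to 40575 and 41273, for a ratio of 0.975 (0.962 to 0.989), and 0.971 without Hmgcs1, the most abundant of them. In TPM the sums were nearly the same, at 1946 and 1943, since TPM ratios run higher over all genes, with a median log2 ratio of 0.037. Counting intervals lay below 1 for 3 enzymes (16.7%) and above 1 for 1 (5.56%), beside 6.88% and 6.49% of measured genes. Among all genes at 50 CPM or more the shares were 9.68% and 9.33%, although some of the 18 enzymes lie under that level.

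The steps before squalene make the isoprenoid units. Acat2, the thiolase that joins acetyl-CoA units, had 84.4 TPM with Aβ and 78.2 TPM with DMSO. Its fractional counts, 1211.93 and 1142.02, arise where a quantifier divides reads between similar transcripts, and its ratio was 1.05 (0.970 to 1.14). Summed with the near-copy Acat2l1 the ratio was 1.04 (0.971 to 1.12). Hmgcs1, which makes the precursor of mevalonate, headed all sterol genes with 389 TPM and 384.5 TPM. Its 12366 and 12452 counts gave the tightest interval of the set, a ratio of 0.985 (0.961 to 1.01). Hmgcs1 thus lay below 1 in CPM and above 1 in TPM, and in both units it lay within a few percent of 1. Its log2 ratio in TPM, 0.018, was below the median of 0.037 for all measured genes in that unit.

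The mevalonate kinases and the decarboxylase follow. Mvk, which phosphorylates mevalonate, had 33.9 TPM and 34.8 TPM (472 and 493 counts). Pmvk, the next kinase, had 64.9 TPM and 61.9 TPM (450 and 434 counts). Mvd, the decarboxylase that yields isopentenyl diphosphate, had 53.1 TPM and 54.1 TPM (763 and 791 counts). Their ratios were 0.950 (0.835 to 1.08), 1.03 (0.899 to 1.18) and 0.957 (0.865 to 1.06), so each interval held 1. Hmgcs1 exceeded Mvk 11.5-fold in TPM with Aβ and 11.0-fold with DMSO, so enzymes of neighbouring steps differed far more from each other than any of them differed between libraries.

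Idi1, the isomerase that interconverts the isoprenoid units, had the lowest ratio of all 32 genes. It stood at 57.5 TPM and 64.7 TPM, with 1521 and 1744 counts, a ratio of 0.865 (0.807 to 0.927). About 8.22% of all measured genes had a log2 ratio as low or lower. Fdps, which condenses these units to farnesyl diphosphate, was second in level with 328 TPM and 329 TPM. Its ratio was 0.975 (0.929 to 1.02), so the enzyme that directly follows Idi1 was close to equal in both libraries.

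Squalene formation and ring closure take 3 enzymes. Fdft1, squalene synthase, had 79.1 TPM with Aβ and 84.6 TPM with DMSO (2385 and 2599 counts, ratio 0.910, 0.861 to 0.963), the next lowest ratio after Idi1. Sqle, squalene epoxidase, a rate-limiting oxygen-dependent enzyme, had 128 TPM in each library (2364 and 2404 counts, ratio 0.975, 0.921 to 1.03). Lss, which folds the epoxide into lanosterol, had 49.9 TPM and 48.3 TPM (1341 and 1322 counts, ratio 1.01, 0.932 to 1.09). Within this short stretch the first enzyme lay below 1 and the last lay at 1.

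Lanosterol is then demethylated, reduced and isomerised. Cyp51, the lanosterol demethylase, had 201 TPM and 197 TPM, with 5761 and 5759 counts (ratio 0.992, 0.956 to 1.03). Tm7sf2, a sterol reductase, had 43.5 TPM and 43.1 TPM (530 and 533 counts, ratio 0.986, 0.873 to 1.11). Msmo1, the methylsterol oxidase, had 225 TPM and 235 TPM (3332 and 3533 counts, ratio 0.935, 0.892 to 0.981). Msmo1 thus shared with Idi1 and Fdft1 an interval wholly below 1.

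Nsdhl and Hsd17b7 act with Msmo1 in removing methyl groups, Nsdhl as the decarboxylating dehydrogenase and Hsd17b7 as the ketone reductase. Nsdhl had 60.4 TPM with Aβ and 54.5 TPM with DMSO (1131 and 1028 counts), the highest ratio of the synthesis enzymes at 1.09 (1.00 to 1.19). Hsd17b7 had 8.60 TPM and 9.51 TPM (335 and 356 counts, ratio 0.933, 0.802 to 1.09), the lowest level of the synthesis enzymes. The enzymes of this demethylation complex therefore did not lean one way. Msmo1 lay below 1, Nsdhl above 1 with an interval that started next to 1, and the interval of Hsd17b7 held 1.

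The last steps also stayed near 1. Ebp, the sterol isomerase, had 29.2 TPM and 29.9 TPM (230 and 238 counts, ratio 0.959, 0.796 to 1.15). Sc5d, a desaturase, had 36.7 TPM and 36.9 TPM (1406 and 1461 counts, ratio 0.955, 0.887 to 1.03). Dhcr7, the reductase that finishes one branch of the pathway, had 73.1 TPM and 69.6 TPM (1665 and 1615 counts, ratio 1.02, 0.954 to 1.10). By stage, median log2 ratios were -0.037 before squalene (7 genes), -0.036 from squalene to lanosterol (3 genes) and -0.039 after lanosterol (8 genes). The 3 stages therefore had nearly the same median, although single enzymes differed.

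Promoter sequences of members are shown because SREBPs act on the synthesis genes together with NF-Y, a factor that binds the CCAAT box. RefSeq windows on build GRCr8, from 250 bases before to 50 bases after a start, were matched by gene identifier for 27 of the 32 genes, in 28 windows. Stretches before the start are printed for the 3 most abundant genes whose listed start is the outermost annotated one (Fdps, Msmo1, Cyp51), for the lowest ratio of all (Idi1) and for the highest of the synthesis enzymes (Nsdhl, ending 60 bases before its start, where another annotated start lies). Each runs 5′ to 3′ along the gene, and capitals mark CCAAT on either strand and, in Fdps, the letters TCACACGAG.
Fdps, chr2:176804817-176805026, minus strand: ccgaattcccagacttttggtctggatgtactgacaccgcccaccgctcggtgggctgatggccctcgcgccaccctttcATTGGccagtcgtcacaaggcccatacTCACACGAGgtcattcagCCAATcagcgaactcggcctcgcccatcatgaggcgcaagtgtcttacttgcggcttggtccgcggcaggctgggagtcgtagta
Msmo1, chr16:29746903-29747112, plus strand: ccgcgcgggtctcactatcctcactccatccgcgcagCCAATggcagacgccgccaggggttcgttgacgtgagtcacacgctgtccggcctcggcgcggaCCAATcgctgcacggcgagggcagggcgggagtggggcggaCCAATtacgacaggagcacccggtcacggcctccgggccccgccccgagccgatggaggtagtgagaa
Cyp51, chr4:30991483-30991692, plus strand: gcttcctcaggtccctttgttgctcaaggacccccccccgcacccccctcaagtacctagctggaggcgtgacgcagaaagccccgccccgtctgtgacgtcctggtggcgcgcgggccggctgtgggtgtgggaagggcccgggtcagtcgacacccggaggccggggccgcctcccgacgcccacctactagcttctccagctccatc
Idi1, chr17:66547525-66547734, minus strand: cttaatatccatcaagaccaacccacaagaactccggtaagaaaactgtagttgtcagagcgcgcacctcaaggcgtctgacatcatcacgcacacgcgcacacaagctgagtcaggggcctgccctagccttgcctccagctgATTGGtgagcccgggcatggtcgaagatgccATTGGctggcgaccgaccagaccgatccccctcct
Nsdhl, chrX:155817150-155817300, plus strand: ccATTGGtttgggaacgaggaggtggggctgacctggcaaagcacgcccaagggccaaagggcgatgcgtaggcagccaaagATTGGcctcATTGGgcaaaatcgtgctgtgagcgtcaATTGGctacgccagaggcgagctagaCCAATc

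CCAAT, searched on both strands, was found in 20 of the 28 sterol gene windows (71.4%), beside 37.5% of all 33469 windows in the table. Nsdhl and Mvk held 5 copies each, Msmo1 3, Fdps and Idi1 2, and Cyp51 had none in its window. Nsdhl, with 5 copies, and Idi1, with 2, had the highest and the lowest ratio of the synthesis enzymes. Mvk, also with 5, had a ratio of 0.950, and Cyp51, with none, 0.992. Fdft1, the next lowest after Idi1, had no window. A relation of copies to ratios was not tested. The letters TCACACGAG, which hold the sterol element described in the rat Fdps promoter, began 103 bases before the Fdps start, between its CCAAT boxes that began 130 and 85 bases before it. They occurred in 1 of the 28 windows and in 0.123% of all windows. The consensus sterol regulatory element TCACNCCAC occurred in 0 of the 28 windows and in 1.12% of all, on both strands, which says only that these letters are not in these windows. The GC box GGGCGG, which Sp1 binds, was in 25 of the 28 windows (89.3%), beside 33.1% of all. The 33469 windows were not limited to genes measured in these cells. The shares therefore do not show whether sterol genes differ from other expressed genes. A match is a description of letters, and no occupancy was measured.

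Regulators of the pathway divided in direction. Srebf2, whose product chiefly drives the cholesterol genes, had 73.2 TPM with Aβ and 73.6 TPM with DMSO (3668 and 3751 counts, ratio 0.970, 0.927 to 1.02). Srebf1, whose product chiefly drives fatty acid genes, had 81.6 TPM and 81.9 TPM, with fractional counts of 3387.42 and 3445.66 (ratio 0.975, 0.929 to 1.02). The table gives 1 value per gene, so products from its separate promoters were not told apart. Srebf1 exceeded Srebf2 1.11-fold in TPM in each library, so the balance of these transcription factors was close to equal in both.

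The proteins that hold or carry SREBPs stood further from 1. Scap, the escort, had 42.2 TPM and 37.4 TPM (1733 and 1560 counts), a ratio of 1.10 (1.03 to 1.18), with 13.5% of measured genes at a higher rank. Insig1, an SREBP target that retains Scap, had 82.4 TPM and 85.6 TPM (1837 and 1944 counts), and its ratio of 0.937 had an upper limit just under 1 (0.879 to 1.00). Insig2, its relative, had 13.8 TPM and 11.0 TPM (305 and 281 counts, ratio 1.08, 0.913 to 1.27). Insig1 exceeded Insig2 5.98-fold in TPM with Aβ and 7.77-fold with DMSO. The median log2 ratio of the 5 regulators was -0.037, and 0.030 without Srebf1, whose counts are fractional, so this small group has no stable direction.

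Insig2 was the gene whose ratio depended most on the unit. Its TPM ratio was 1.25 and its count ratio 1.08. The transcript length implied by counts and FPKM (fragments scaled to transcript length and library size) was 2084 bases with Aβ and 2350 bases with DMSO. Relative to the middle gene this is a length ratio of 0.884, the lowest of the 32. Hsd17b7 lay at the other end, with implied lengths of 3669 bases and 3455 bases, a length ratio of 1.06. These were the only sterol genes (2 of 32) beyond 5% in implied length, beside 6.03% of measured genes, and which transcripts the quantifier used is not stated by the labels or headers.

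**Figure D3:**
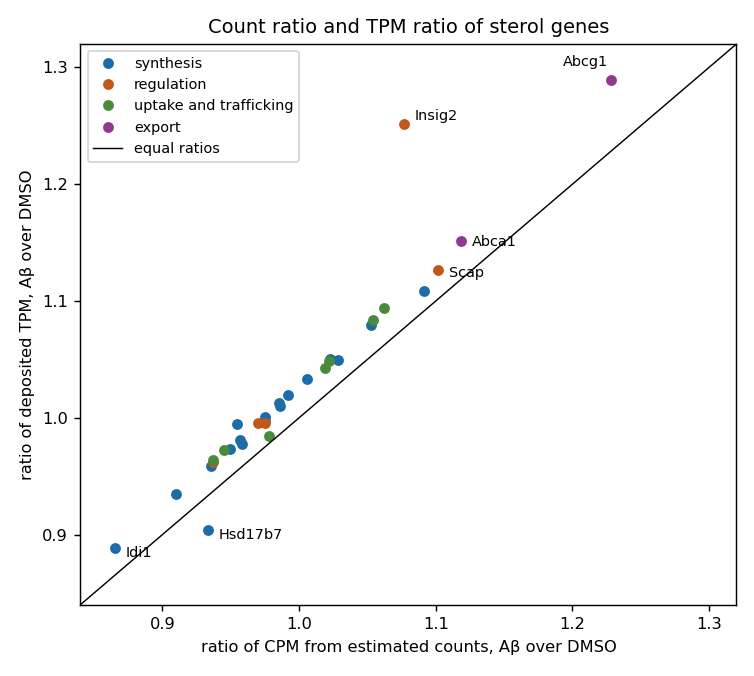
Ratio of deposited TPM against ratio of CPM from estimated counts, Aβ over DMSO, for each sterol gene, coloured by role, with the line of equal ratios. Most genes sit slightly above the line by a shared amount. Insig2 stands apart above it, with a TPM ratio of 1.25 and a count ratio of 1.08, and Hsd17b7 lies below it, at 0.904 and 0.933.

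Genes of uptake and trafficking were close to 1 throughout. Ratios exceeded 1 for 4 of the 7, and the median on the log2 scale was 0.027 (-0.0025 without Mylip, the gene under 10 CPM). Vldlr, a receptor for apolipoprotein E-rich lipoproteins, had 19.5 TPM with Aβ and 17.8 TPM with DMSO (1164 and 1087 counts, ratio 1.06, 0.977 to 1.15). Mylip, the LXR-induced ligase that removes such receptors, had 1.17 TPM and 1.08 TPM. Its 34 and 32 counts gave a ratio of 1.05 (0.631 to 1.76), so differences inside that interval were not detectable at this depth.

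Sterol that enters cells is handed on inside them. Npc2, the soluble lysosomal carrier, had 201 TPM and 193 TPM (1996 and 1943 counts, ratio 1.02, 0.957 to 1.08). Npc1, the membrane partner that takes cholesterol from Npc2 out of the lysosome, had 42.7 TPM and 44.3 TPM (2193 and 2321 counts, ratio 0.937, 0.884 to 0.994). Npc2 exceeded Npc1 4.71-fold in TPM with Aβ and 4.35-fold with DMSO. The interval of Npc1 lay just below 1 and that of Npc2 held 1.

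Stard4, a soluble sterol carrier that is an SREBP target, had 23.4 TPM and 23.8 TPM (1048 and 1063 counts, ratio 0.978, 0.897 to 1.07). Osbp, which exchanges sterol between the endoplasmic reticulum and the Golgi, had 41.6 TPM and 42.7 TPM (1810 and 1900 counts, ratio 0.945, 0.885 to 1.01). Soat1, which esterifies cholesterol for storage, had 28.9 TPM and 27.5 TPM (438 and 425 counts, ratio 1.02, 0.892 to 1.17). All 3 intervals held 1.

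Both exporters had higher values with Aβ, and they held the top ranks of the 32. Abca1, which loads cholesterol onto apolipoproteins, had 28.2 TPM with Aβ and 24.5 TPM with DMSO (3025 and 2682 counts), which gave 1.12 (1.06 to 1.18). Abcg1, which passes sterol on to formed lipoprotein particles, had 5.26 TPM and 4.08 TPM (213 and 172 counts), a ratio of 1.23. Its interval of 1.00 to 1.51 starts at 1 and is wide because its count is low. Abca1 exceeded Abcg1 5.37-fold in TPM with Aβ and 6.01-fold with DMSO. The median log2 ratio of the pair was 0.22, which is also their mean, and summed counts gave a ratio of 1.13 (1.07 to 1.18). Of measured genes, 88.7% ranked at or below Abca1 in log2 ratio and 95.3% at or below Abcg1.

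For Abca1, the exporter with the higher level, 30 bases are shown around a stretch, in capitals, that resembles the repeat bound by LXR.
Abca1, chr5:72596521-72596550, minus strand: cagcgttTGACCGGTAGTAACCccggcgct
The letters GGTTANNNNCGGTCA were chosen after the window was read and were found here on the opposite strand. They resemble a pair of receptor hexamers, although the first part is shorter than in the consensus repeat. They begin 70 bases before the listed start on build GRCr8, inside the span annotated for the gene. They were in 1 of the 28 sterol gene windows and in 0.00896% of all windows, searched on both strands. The consensus repeat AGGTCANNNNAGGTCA was in 0 of the 28 and in 0.00598% of all.

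**Figure D4:**
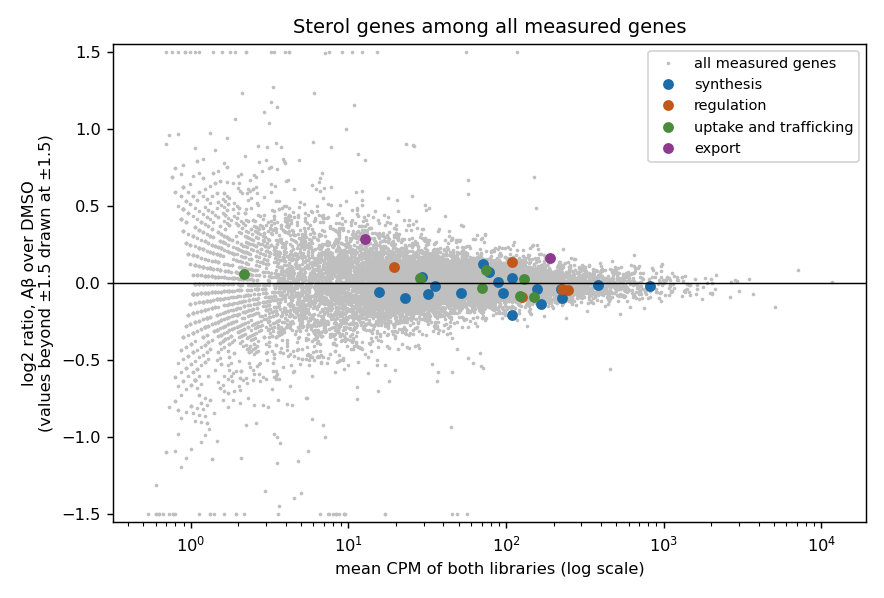
Log2 ratio, Aβ over DMSO, against mean CPM (log axis) for all 13505 measured genes (grey) and the 32 sterol genes, coloured by role. The sterol genes lie within the grey band, with log2 ratios between -0.21 for Idi1 and 0.29 for Abcg1.

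The rest of the pathway was described from a list of other sterol genes, set with earlier results of these libraries known. Of 36 other sterol genes, 35 were listed and 33 measured. They divided into 17 above 1 and 16 below, and their median on the log2 scale was 0.018. Intervals lay above 1 for 3 and below 1 for 1, beside 6.49% and 6.88% of measured genes, which is near the general share. The Osbp relative Osbpl9 had a ratio of 0.893 (0.826 to 0.965). Of sterol hydroxylases, Cyp46a1 stood at 0.898 (0.721 to 1.12) and Cyp7b1 at 1.25 (0.982 to 1.58), both with intervals that held 1.

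Known LXR targets mostly had ratios above 1. Of 8 such genes, 4 of them among the 32, a ratio above 1 was found for 7 and an interval above 1 for 4, with a median log2 ratio of 0.065. Of all measured genes, 49.7% had a ratio and 6.49% an interval above 1. The OPC markers had as many intervals above 1, 4 of 9, with 7 ratios above 1 and a median log2 ratio of 0.085, and 3 of the 8 astrocyte markers had an interval above 1. The 4 LXR targets outside the 32 all had a ratio above 1, with an interval above 1 for 2 of them and one that held 1 for the other 2. Nr1h3, which encodes an LXR and is its own target, had 47 and 28 counts, a ratio of 1.66 (1.02 to 2.76). Apoe, the main brain apolipoprotein and acceptor of exported sterol, had 1313 TPM and 1225 TPM (ratio 1.05, 1.02 to 1.08). Srebf1 was the LXR target below 1. This list was set with earlier results of these libraries known and is not independent evidence of a direction.

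Fatty acid genes under SREBP control had a higher median ratio than the cholesterol enzymes, although the difference between the lists was not tested. Of 10, 9 were measured, and the median on the log2 scale was 0.035. A ratio above 1 was found for 6 of the 9, beside 49.7% of all measured genes. Intervals lay above 1 for 3 and below 1 for 1, beside 6.49% and 6.88% of measured genes. Among all genes at 50 CPM or more these shares were 9.33% and 9.68%. Scd2, the abundant desaturase, had 2206 TPM and 2023 TPM with fractional counts (ratio 1.06, 1.05 to 1.07). Acaca, the first committed enzyme, had a ratio of 1.09 (1.02 to 1.17), Fasn, the synthase, 1.05 (1.02 to 1.08), and Fads2, a desaturase of polyunsaturated fats, 1.00 (0.961 to 1.05). Me1, which supplies reducing power, had a ratio of 0.903 (0.842 to 0.967).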

How the data were processed

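RNA was sequenced from 1 Aβ and 1 DMSO library. Bowtie2 and the build Rnor_6.0 are named in the submitters' processing notes; the sources used here give no versions, quantifier, annotation release or strand use. Per the file headers, the authors deposited estimated counts, TPM, FPKM and a normalized read count per gene, a signal value that was not used.

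Estimated counts were rounded, and CPM used TMM effective library sizes (edgeR 4.0.16, R 4.3.3). A gene was measured when either library reached 1 CPM. Log2 ratios used a pseudocount of 0.5 CPM. Ratio intervals are 95% Clopper-Pearson intervals given the summed count. Implied length is the count divided by FPKM and by the library total. The ratio script was tested on simulated counts.

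The sterol genes and lists were chosen with earlier results of these data known. All 32 are named. From other lists, up to 4 genes furthest from 0 and the 2 most abundant are named, and 4 OPC and 2 myelin markers as a check. Of the neuron markers, only Tubb3, Map2 and Rbfox3 are named. Some genes of the other lists are not reported here. Alternatives were DESeq2 1.42.0 size factors, total counts, TPM, a pseudocount of 5 CPM, other filters, whole counts only and a length adjustment.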

Additional observations from a re-analysis of the deposited data

How the results depend on the processing

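With 1 library per group, leaving out a replicate was not possible, and depth limits mainly Mylip and Abcg1. No paired analysis was possible because each group has 1 library. The rule of size called 0 sterol genes with the settings of the report and under all 9 alternatives (with TPM by fold alone). With TPM, 2 genes lay beyond 1.2-fold (Abcg1 and Insig2), the median log2 ratio of the exporters was 0.27 and the summed ratio of all 32 genes was 1.01, while the median of all genes moved to 0.037. The log2 ratio of Hmgcs1 was then 0.018. Above 50 CPM, a filter added after the data were seen, 0 genes lay beyond 1.2-fold. Intervals below 1 numbered 4, without Insig1, with DESeq2 size factors, with total counts and with length adjusted, and intervals above 1 numbered 3, without Abcg1, with length adjusted and above 50 CPM, where Abcg1 was not measured. The median of the 32 genes ran from -0.036 to 0.0081, and that of the exporters from 0.16 to 0.27.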

Other observations

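Genes that control the stability of the sterol sensors or cut SREBPs had ratios near 1. They were named outside the rule for named genes, after their values were seen. Rnf145 and Rnf139, ligases of the endoplasmic reticulum membrane, stood at 1.07 (0.999 to 1.14) and 1.09 (0.970 to 1.22). Erlin1 and Erlin2, membrane proteins that bind the SREBP, Scap and Insig complex, stood at 1.05 (0.945 to 1.16) and 1.07 (0.990 to 1.15). The proteases that cut SREBPs in the Golgi were Mbtps1 at 1.04 (0.988 to 1.09) and Mbtps2 at 0.950 (0.850 to 1.06). All 6 intervals held 1, and they cover counting error only. Lrp1, a large lipoprotein receptor, had 66.3 TPM with Aβ and 59.7 TPM with DMSO, with a ratio of 1.08 (1.05 to 1.11).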
